A study of Rattus norvegicus with 4 samples.

Results

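The genes described here belong to cholesterol and fatty acid synthesis and its control by the SREBP transcription factors, with a few related genes. Control of each gene by SREBP was not tested. Levels were measured in surface colonocytes of the rat distal colon, the absorptive cells of the epithelium nearest to the lumen. The set held 38 genes listed by function, a choice made with earlier results of these data known. Of these, 31 had a row with that single gene symbol on the array, out of 13215 genes named in this way. The other 7 (Hmgcs1, Fdps, Mvk, Acss2, Fasn, Elovl1 and Stard4) were not analysed here. Each of the 31 had 1 row. A row gathers the probes that the array design assigns to 1 transcript cluster, mostly 1 gene.

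SREBP proteins are made as precursors that sit in the membrane of the endoplasmic reticulum bound to SCAP. When sterols are scarce, SCAP carries the precursor to the Golgi, where proteases release the active factor, and when sterols are plentiful INSIG proteins hold SCAP back. SREBP-2, from Srebf2, acts mainly on cholesterol synthesis and uptake, and SREBP-1, from Srebf1, mainly on fatty acid synthesis. Enterocytes make sterols themselves besides taking them up, so that these genes are active in the gut epithelium.

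RNA came from 4 Wistar rats aged 12 weeks, with 1 exon array per rat. All 4 had both adrenal glands removed 4 days before and drank 0.9% NaCl, so that the vehicle rats also lacked the adrenal hormones. For 2 h, 2 rats received aldosterone, the steroid that raises sodium absorption in the colon, both from a minipump that delivered 10 µg/kg per h and from a subcutaneous injection of 50 µg per 100 g. The other 2 received the vehicle injection and a minipump with PEG300. The inverted colons were then shaken for 40 min, with 100 nM aldosterone or vehicle in the solution, to release the surface cells. Rats are called 1 and 2 within a group by the replicate number of their label, and the numbers have no order. Levels below are the authors' log2 expression values, and differences are aldosterone minus vehicle on the log2 scale. In such cell preparations fewer cells of a type and less RNA per cell cannot be told apart.

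The known aldosterone responses separated the groups. Sgk1, the kinase that keeps the sodium channel at the cell surface, stood at 10.51 and 10.64 with vehicle and at 12.54 and 12.52 with aldosterone. All 8 measured surface colonocyte markers were above the median of all row means (2.35), although Slc9a3, the sodium-proton exchanger NHE3, stood at 8.39 in aldosterone rat 1 and between 2.48 and 3.99 in the other 3. Of 7 leukocyte markers 6 lay below that median, as did 4 of 7 markers of crypt and proliferating cells. So did 4 of 8 markers of enteroendocrine and tuft cells and 2 of 4 of adipocytes. Other lists went the other way, with 1 of 4 goblet markers below it and 1 of 5 of stroma, muscle, endothelium and nerve. The highest mean in the last list was 2.76. The median of all rows lay between 2.22 and 2.44 on the 4 arrays. Across all 19403 rows limma with a constant prior variance called 0 at an adjusted p under 0.05 (0%), with 879 rows (4.53%) under an unadjusted p of 0.05. A prior variance that follows the level (intensity trend) called 21 rows, 18 higher (0.0928%) and 3 lower (0.0155%), together 0.108%.

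No shift of cholesterol and fatty acid synthesis as a whole was detected between the aldosterone and the vehicle rats. Of the 31 measured members 0 passed with the constant prior, 2 had an unadjusted p under 0.05 (Fads3 and Fads2), and 1, Fads3, passed with the intensity trend. The difference was above 0 in 17 members and below 0 in 14, with a median of 0.012 against 0.024 over all rows, of which 58.3% lay above 0 (53.8% of rows at or above the median level). Quantile normalization gave 14 above and 17 below, and centring each array on its median gave 13 and 18. The values of the groups did not overlap in 2 members that were higher (Fads3 and Fads2) and 4 that were lower (Acly, Acaca, Srebf1 and Scap). The first is 6.45% of the members and the second 12.9%, where 16.7% and 11.1% of all rows showed the same, and 15% and 14.1% of rows at or above the median level. The adjusted p was 0.593 for Fads3 and 1.00 for the other 30 members in limma.

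**Figure D1:**
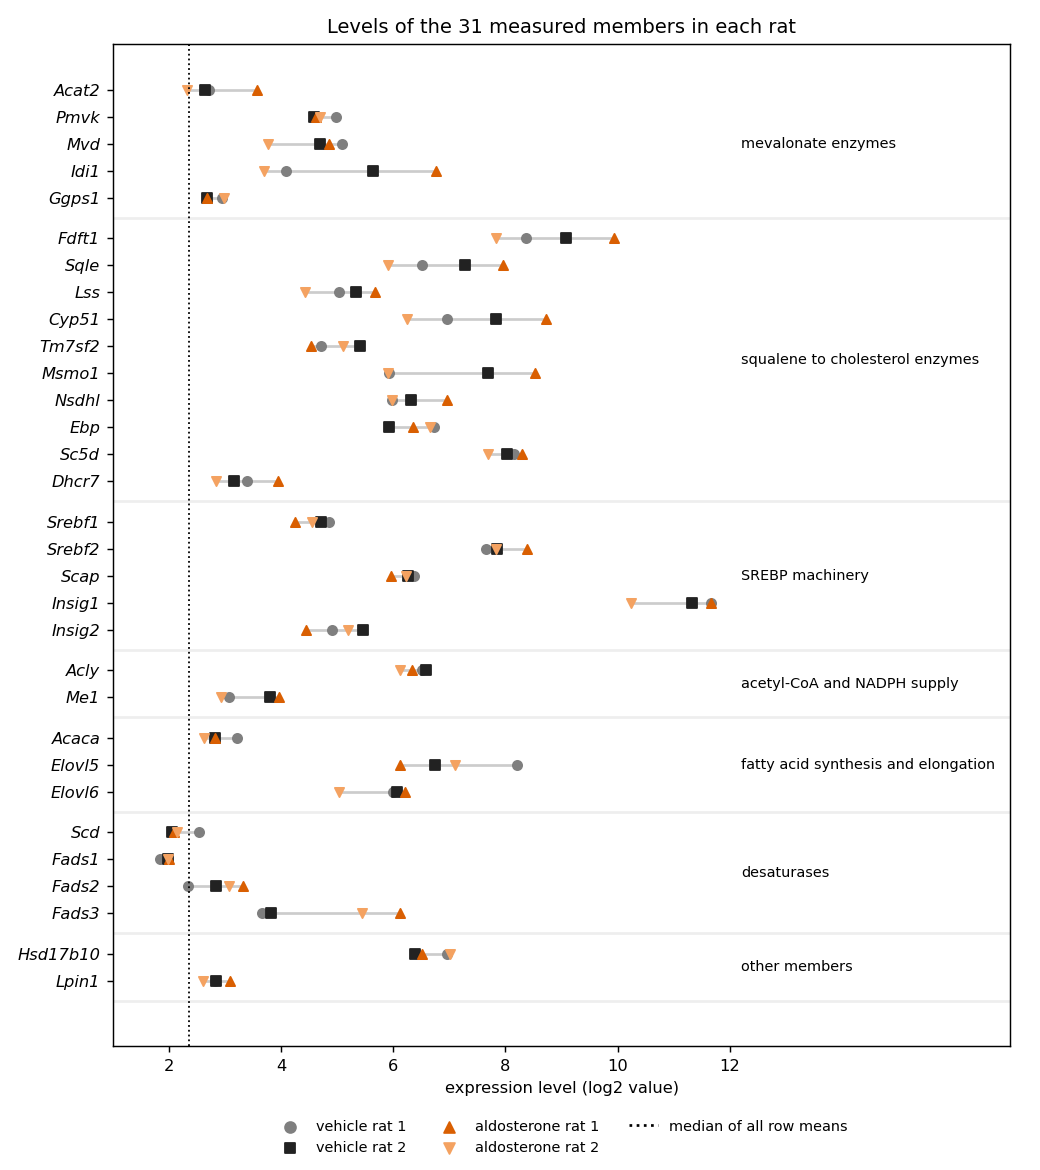
Level of each measured member (log2 value, horizontal axis) in the 4 rats, grouped by role, with a grey line from the lowest to the highest rat and a dotted line at the median of all row means, 2.35. The sterol enzymes Idi1, Msmo1 and Cyp51 spread widely with an aldosterone rat at either end, while for Fads3 both aldosterone rats (6.12 and 5.44) lie above both vehicle rats (3.67 and 3.81).

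What set the sterol enzymes apart was the distance between individual rats. Idi1, which interconverts the isoprene units that all sterols are built from, stood at 4.08 and 5.64 with vehicle and at 6.76 and 3.70 with aldosterone. Msmo1, the sterol C4-methyl oxidase, stood at 5.92 and 7.70 against 8.53 and 5.91. Cyp51, which removes the C14-methyl group of lanosterol, stood at 6.95 and 7.83 against 8.72 and 6.24. In each of these genes the aldosterone rats were the highest and the lowest of the 4, with the vehicle rats between them.

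The enzymes at the entry to the sterol-specific steps, and the later enzyme Nsdhl, likewise had aldosterone rat 1 highest and vehicle rat 2 next. Fdft1, squalene synthase, stood at 8.36 and 9.08 with vehicle and at 9.94 and 7.84 with aldosterone. Sqle, the oxygenase that is a rate-limiting step after squalene, stood at 6.51 and 7.28 against 7.96 and 5.91. Lss, which closes squalene epoxide into lanosterol, stood at 5.04 and 5.34 against 5.67 and 4.43. Nsdhl, which acts with Msmo1 on the C4-methyl groups, stood at 5.98 and 6.31 against 6.96 and 5.98. Its lowest value, by a small margin, was that of vehicle rat 1. Aldosterone rat 1 was thus highest and vehicle rat 2 next in all of these 7 enzymes. This ranking, aldosterone rat 1 above vehicle rat 2 above both others, was found in 7 of 15 measured sterol enzymes (46.7%). All rows gave 6.15% and rows at or above the median level 4.51%. The fatty acid branch had it in 3 of 9 measured genes (33.3%), Me1, Elovl6 and Fads1, and all members in 12 of 31 (38.7%). Aldosterone rat 1 was the highest and aldosterone rat 2 the lowest in 9 of 15 sterol enzymes (60%) and 2 of 9 fatty acid genes (22.2%). The same held in 5.2% of all rows and 5.98% of rows at or above the median level. Both rankings were looked for after the values had been seen.

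The size of the gap between the aldosterone rats was large in the same genes. Aldosterone rat 1 exceeded rat 2 by 8.34-fold for Idi1, 6.12-fold for Msmo1, 5.59-fold for Cyp51, 4.30-fold for Fdft1 and 4.14-fold for Sqle. A gap of 1 or more on the log2 scale between the aldosterone rats was found in 9 of 15 sterol enzymes, against 2.32% of all rows and 4.57% of rows at or above the median level. The median absolute gap of the sterol enzymes was 1.10 between the aldosterone rats and 0.40 between the vehicle rats, while the median absolute difference between the groups was 0.17. Over all rows these medians were 0.14, 0.18 and 0.094, and over rows at or above the median level 0.24, 0.28 and 0.16. The groups overlapped in all 15 sterol enzymes, where 16.7% of all rows were higher and 11.1% lower without overlap.

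**Figure D2:**
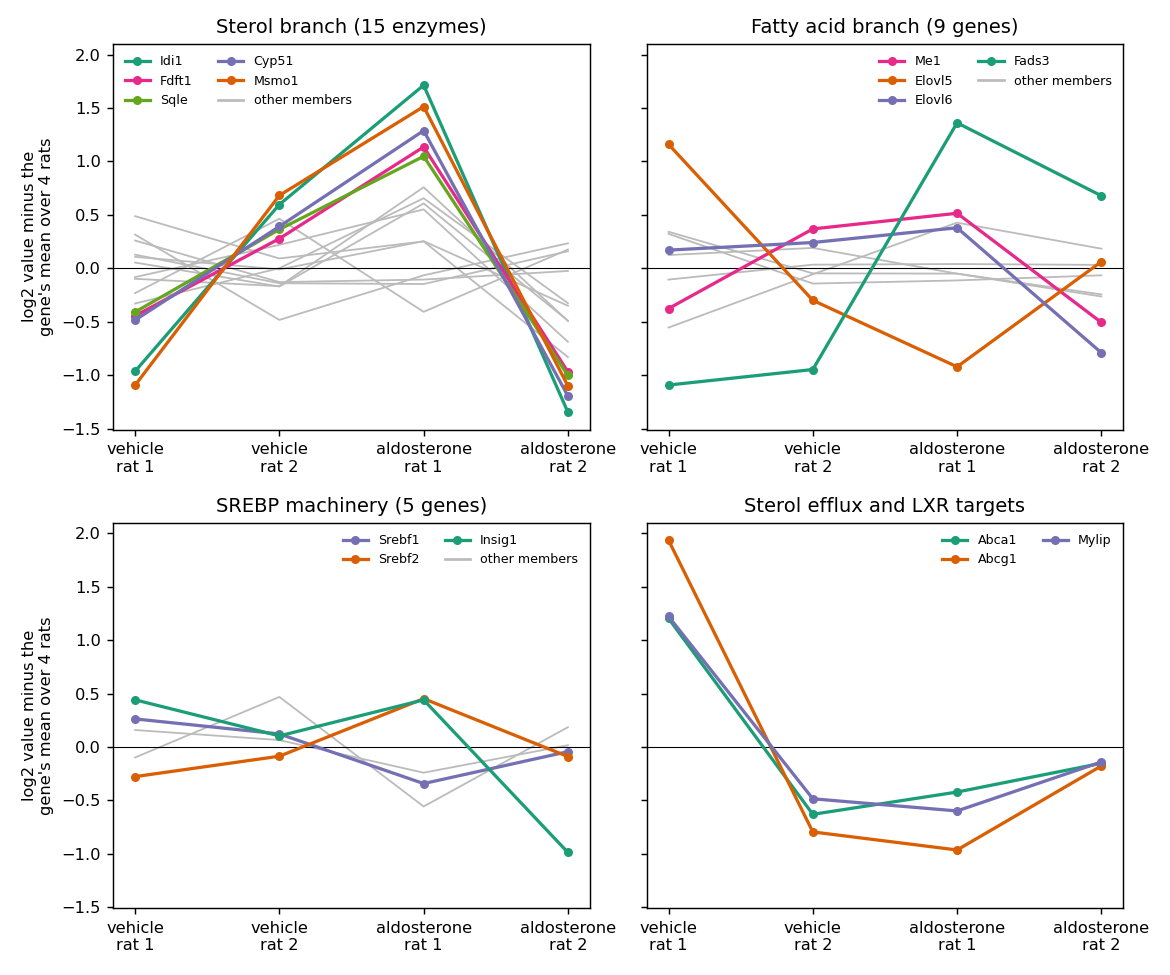
Log2 value minus the gene's own mean over the 4 rats (vertical axis) in each rat (horizontal axis), in panels for the sterol branch, the fatty acid branch, the SREBP machinery and 3 targets of the sterol-sensing receptor LXR. The lines join the values of 1 gene and imply no order of rats. Idi1, Msmo1, Cyp51, Fdft1 and Sqle peak in aldosterone rat 1 and fall to their lowest in aldosterone rat 2, Fads3 is high in both aldosterone rats, and Abca1, Abcg1 and Mylip are high in vehicle rat 1 alone. The last 3 are those highest in that rat among 7 measured genes of LXR and sterol efflux. Nr1h3, Abcg5 and Abcg8, not drawn, were lowest in it.

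The treatment differences of these enzymes were therefore small against their intervals. For Idi1 the difference was 0.37 with a 95% interval from -2.94 to 3.67, for Msmo1 0.41 (-2.63 to 3.46) and for Cyp51 0.093 (-2.45 to 2.63). These intervals leave room for a change of several fold in either direction. Without aldosterone rat 1 the difference of Idi1 was -1.16, and without aldosterone rat 2 it was 1.90. The difference between groups was exceeded by that between the aldosterone rats in 14 of the 15 sterol enzymes (93.3%), the exception being Pmvk. All rows gave 62.6% and rows at or above the median level 62.8%. The difference between the vehicle rats exceeded it in 13 of 15, against 68.3% of all rows and 66.6% of the higher rows. Both pairs differed by more than the groups in 12 of 15 (80%), against 48.1% and 47.7%.

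Not every sterol enzyme varied in this manner. Sc5d, the lathosterol desaturase, stood at 8.15 and 8.03 with vehicle and at 8.30 and 7.69 with aldosterone. Dhcr7, the last reductase of the pathway, stood at 3.38 and 3.16 against 3.94 and 2.84, and Acat2, the cytosolic thiolase that joins acetyl-CoA units, at 2.71 and 2.64 against 3.57 and 2.32. These 3 had aldosterone rat 1 highest and rat 2 lowest but no gap in the vehicle pair in favour of rat 2. Mvd, the mevalonate diphosphate decarboxylase, was low in aldosterone rat 2 alone, at 3.77 against 4.85 in aldosterone rat 1 and 5.09 and 4.69 in the vehicle rats.

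In 4 sterol enzymes aldosterone rat 2 stood above rat 1. Ebp, the sterol isomerase, had 6.73 and 5.93 with vehicle and 6.35 and 6.65 with aldosterone. Tm7sf2, a sterol C14-reductase, had 4.70 and 5.40 against 4.53 and 5.11. Pmvk, the phosphomevalonate kinase, had 4.98 and 4.59 against 4.61 and 4.69. Ggps1, which makes the geranylgeranyl chain used to anchor proteins and so leads away from sterols, had 2.94 and 2.68 against 2.67 and 2.98. The gap between the aldosterone rats was thus shared by 11 of the 15 enzymes and not by these. Hsd17b10, a mitochondrial dehydrogenase that is not an enzyme of cholesterol synthesis, also stood higher in aldosterone rat 2 (6.95 and 6.39 against 6.51 and 7.01).

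Rows of the whole array that followed the same ranking with a wide spread were few. Among 4815 rows with a mean of 4 or more, 20 (0.415%) had aldosterone rat 1 above vehicle rat 2 above both others with a span of 1.5 or more from the lowest to the highest rat. Of these, 14 carried a gene name and 5 were members (Idi1, Msmo1, Cyp51, Fdft1 and Sqle), out of 22 members with such a mean. Aacs, a cytosolic enzyme that makes acetoacetyl-CoA for lipid synthesis and was named after its values were seen, was another at 5.11 and 5.19 with vehicle and 6.16 and 4.30 with aldosterone. Slc9a3 had the widest span of the 20, 5.91. The 6 rows without a gene name stay unnamed here. The ranking had been taken from the members with their values known, so that the 5 members among the 20 are no separate evidence for it.

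Some markers of other epithelial cells differed between the same rats. Tff3, a secreted peptide of goblet cells, stood at 11.12 and 10.74 with vehicle and at 9.44 and 11.30 with aldosterone, so that it was lowest in the rat in which the sterol enzymes were highest. Zg16, a goblet cell lectin, stood at 5.14 and 4.45 against 6.39 and 8.06. Averaged over the 4 measured goblet markers, the level was 6.48 and 6.24 with vehicle and 6.36 and 7.46 with aldosterone. The mean of the 7 measured markers of crypt and proliferating cells was 2.59 and 2.64 against 2.87 and 2.63, and Mki67, a proliferation marker, lay below the median of all row means in every rat. Of these 7, Mki67, Top2a and Ccnb1 had the ranking of the sterol enzymes, all with means below that median, as had Car4 and Slc9a3 among the 8 surface markers. The part of cell composition in the gap between the rats was not tested.

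Promoters of sterol enzymes hold boxes for NF-Y, both where the enzyme had the ranking of rats above and where it had not. NF-Y is a factor that binds the letters CCAAT and acts together with SREBP at many of its target genes. Windows of 250 bases before to 50 bases after the start of a gene, from RefSeq on the GRCr8 assembly, were at hand for 26 of the 31 measured members. The 3 stretches below lie upstream of the starts of Msmo1, Idi1 and Nsdhl and are shown because each holds several such boxes within a short distance. Capitals mark CCAAT or its reverse complement ATTGG. They cover chr16:29746933-29747052 on the plus strand for Msmo1, chr17:66547550-66547599 on the minus strand for Idi1 and chrX:155817225-155817304 on the plus strand for Nsdhl, and all read 5′ to 3′ towards the gene.
Msmo1: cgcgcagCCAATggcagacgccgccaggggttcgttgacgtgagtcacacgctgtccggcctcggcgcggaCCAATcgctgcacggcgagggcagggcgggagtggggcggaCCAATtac
Idi1: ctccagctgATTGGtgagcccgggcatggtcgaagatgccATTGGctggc
Nsdhl: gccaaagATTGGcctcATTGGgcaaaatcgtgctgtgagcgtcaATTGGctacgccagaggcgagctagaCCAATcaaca

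Counted on both strands, CCAAT was found in 9 of the 12 measured sterol enzymes with a window (75%), in 19 of 26 measured members (73.1%) and in 37.5% of all 33469 promoter windows. The GC box GGGCGG, to which SP1 binds, was found in 18 of 26 members (69.2%) and in 33.1% of all windows. On opposite strands a CCAAT and a GGGCGG can overlap by 2 bases, and such overlaps were counted under both. TCACNCCAC, a consensus of the sterol regulatory element that SREBP itself binds, was found in 0 of 26 members and in 1.12% of all windows. Members were counted per gene, while the share of all windows counts each window and was not limited to measured genes. These counts describe letters in short windows and do not show binding. Cyp51, whose levels ran with those of Msmo1 and Idi1, had no CCAAT in its window. Ebp, Tm7sf2 and Ggps1, which did not share the gap between the aldosterone rats, had CCAAT in theirs. A link between these boxes and the ranking of rats was not tested.

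The genes of the SREBP machinery did not all follow the sterol enzymes. Srebf2 stood at 7.65 and 7.84 with vehicle and at 8.38 and 7.84 with aldosterone, highest in the same rat as the sterol enzymes. Insig1, which retains SCAP and is itself a target of SREBP, stood at 11.66 and 11.32 against 11.66 and 10.23. Aldosterone rat 2 was thus low for Insig1 as for the sterol enzymes, but vehicle rat 1, low for those enzymes, was not. Insig2, the second retention protein, stood at 4.90 and 5.47 against 4.44 and 5.19.

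Srebf1 and Scap lay lower in both aldosterone rats. Srebf1 stood at 4.85 and 4.71 with vehicle and at 4.25 and 4.55 with aldosterone, a difference of -0.39 with an interval from -0.80 to 0.026. Scap stood at 6.36 and 6.27 against 5.96 and 6.22, a difference of -0.22 (-0.60 to 0.15). The groups did not overlap in either gene, but the aldosterone rats lay 0.30 apart for Srebf1 and 0.26 apart for Scap. Neither passed in limma with the constant prior or the intensity trend (adjusted p = 1.00 in both).

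Gene by gene, the fatty acid branch varied less than the sterol branch between the aldosterone rats (median absolute gap 0.24 against 1.10) but about as much between the vehicle rats (0.39 against 0.40). In the branch means, opposite deviations of single genes cancel. Averaged over the 9 measured genes, the deviation from each gene's own mean was -0.0013 and -0.073 with vehicle and 0.18 and -0.10 with aldosterone. For the 15 sterol enzymes it was -0.19 and 0.13 with vehicle and 0.60 and -0.55 with aldosterone. The spread of the branch mean between rats of a group was 0.60 for the sterol and 0.14 for the fatty acid branch (SD pooled over both groups, 2 rats each). The median treatment difference was 0.093 for the sterol and -0.18 for the fatty acid branch. These medians lay 0.27 apart. The distance between the branch means had a pooled SD of 0.48 between rats of a group, which is a spread of means and not of medians. By the branch means above, the treatment difference was not larger in the sterol branch. The fatty acid mean holds Fads3. Without it the mean deviations of that branch were 0.14 and 0.036 with vehicle and 0.028 and -0.20 with aldosterone.

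**Figure D3:**
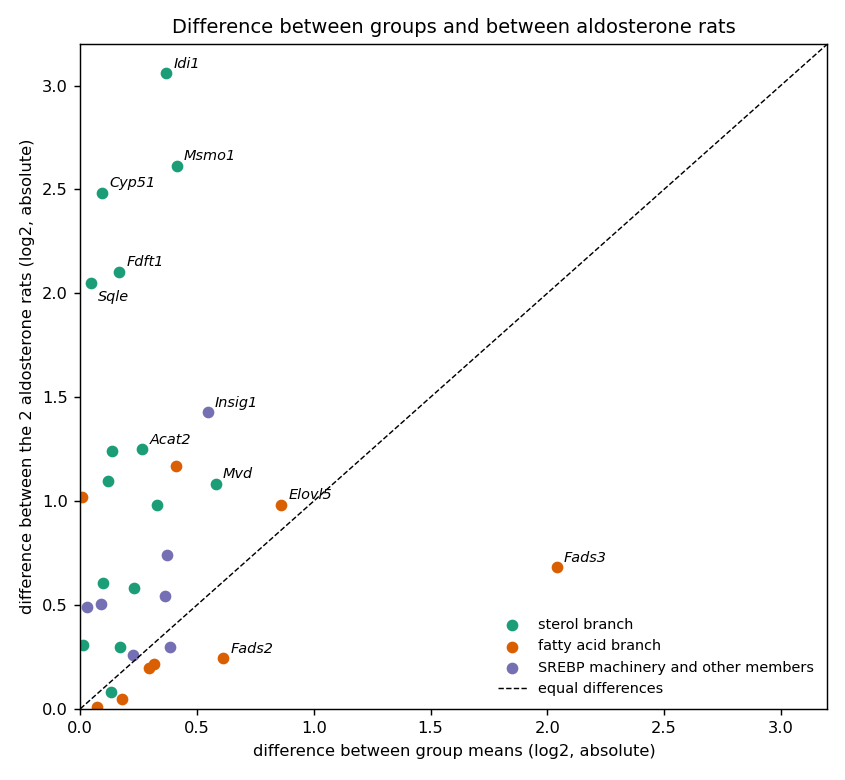
Absolute difference between the group means (log2, horizontal axis) against the absolute difference between the 2 aldosterone rats (log2, vertical axis) for each measured member, with a dashed line where both are equal. Idi1, Msmo1, Cyp51, Fdft1 and Sqle lie far above the line, and Fads3, with a group difference of 2.04 and a gap of 0.68, lies far below it.

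Of the 5 measured enzymes that supply acetyl-CoA and NADPH or build the carbon chain, Acly, Acaca, Elovl5 and Elovl6 had a difference below 0 and Me1 one of 0.0083. Me1 turned to -0.052 with quantile normalization and to -0.0495 with centred arrays, and none of the 5 passed in limma. Acly, which splits citrate into acetyl-CoA for both branches, stood at 6.52 and 6.58 with vehicle and at 6.34 and 6.13 with aldosterone. Its difference was -0.31, with an interval from -0.65 to 0.025. Acaca, the acetyl-CoA carboxylase that commits carbon to fatty acids, stood at 3.21 and 2.82 against 2.81 and 2.62. The groups did not overlap in either gene, though for Acaca vehicle rat 2 (2.82) and aldosterone rat 1 (2.81) nearly met. Me1, the malic enzyme that yields NADPH, stood at 3.06 and 3.81 against 3.95 and 2.93, the ranking of the sterol enzymes.

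The elongases differed from each other in which rat stood apart. Elovl5, which lengthens polyunsaturated fatty acids, stood at 8.20 and 6.74 with vehicle and at 6.12 and 7.10 with aldosterone. Its difference of -0.86 (-2.57 to 0.85) shrank to -0.13 without vehicle rat 1 and to -0.37 without aldosterone rat 1. Elovl6, which lengthens saturated chains of palmitate length, stood at 5.99 and 6.06 against 6.20 and 5.03, so that its difference of -0.41 came from aldosterone rat 2. Lpin1, the phosphatidate phosphatase of triglyceride synthesis, stood at 2.82 and 2.83 against 3.10 and 2.61. None of these groups were separated. Elovl6 and Lpin1 had the ranking of the sterol enzymes.

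Fads3 was the member in which the treatment difference was largest. Fads3 encodes a desaturase of the same family as Fads1 and Fads2 that acts on sphingoid bases, the backbone of ceramides. It stood at 3.67 and 3.81 with vehicle and at 6.12 and 5.44 with aldosterone (3.74 ± 0.10 against 5.78 ± 0.48, SD, n = 2 rats each). Both aldosterone rats stood above both vehicle rats, by 4.11-fold between the means, with an interval of the log2 difference from 1.32 to 2.76. Of all 19403 rows, 16 had a larger rise and 42 a smaller p-value in limma with the constant prior. The adjusted p was 0.593 there and 0.0362 with the intensity trend, which is how Fads3 came to be singled out in an earlier analysis of these data, so that this value is no independent evidence.

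The call of Fads3 was lost when a vehicle rat was left out. With the intensity trend its adjusted p was 0.216 without vehicle rat 1 and 0.294 without vehicle rat 2, and 0.127 with the replicate number as a block. It was 0.011 without aldosterone rat 1 and 1.01e-05 without aldosterone rat 2, where the spread came from the vehicle rats alone. Over all settings the adjusted p of Fads3 ran from 1.01e-05 to 1.00, and its difference from 1.70 to 2.38.

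The other desaturases moved less or lay near the floor of the arrays. Fads2, the delta-6 desaturase of polyunsaturated fatty acid synthesis, stood at 2.33 and 2.83 with vehicle and at 3.31 and 3.07 with aldosterone. Its difference of 0.61 had an interval from 0.017 to 1.20 and an unadjusted p of 0.0461 (adjusted p = 1.00 in limma with the constant prior and 0.971 with the intensity trend). Fads1, the delta-5 desaturase, lay at 1.85 and 1.99 against 1.99 and 1.99, below the median of all row means. Scd, the delta-9 desaturase that makes oleate, lay at 2.53 and 2.06 against 2.09 and 2.14. No fold is given for Fads1 and Scd, whose means lay below that median.

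Fads3, Fads2 and Fads1 are successive protein-coding genes on the GRCr8 assembly. The genes on the other side of Fads3, Rab3il1 and Best1, lay at 1.96 to 2.26 and at 1.91 to 2.00 over the 4 rats, and Fen1, beyond Fads1, at 1.97 to 2.27. Incenp, another neighbour, stood at 2.82 and 3.58 with vehicle and at 3.46 and 3.48 with aldosterone. Among the 7 measured genes of this stretch the rise was thus 2.04 for Fads3, 0.61 for Fads2 and 0.27 or less for the other 5.

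**Figure D4:**
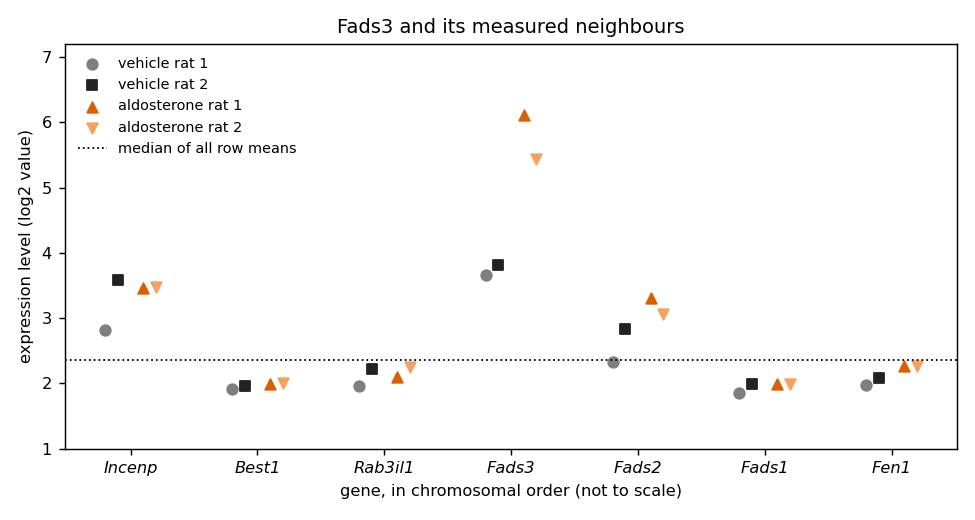
Level (log2 value, vertical axis) of Fads3 and its measured neighbours in chromosomal order (horizontal axis, not to scale), with 1 point per rat and a dotted line at the median of all row means, 2.35. Fads3 is the gene with both aldosterone rats (6.12 and 5.44) clearly above the vehicle rats, and Fads1, Best1 and Rab3il1 stay below the dotted line in all 4 rats.

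The window before Fads3 was searched for the same letters and for a response element of corticosteroid receptors. The stretch chr1:216110658-216110707 on the plus strand is shown because it holds the CCAAT and ATTGG of this promoter, marked in capitals, from 215 to 166 bases before the start. A consensus of the corticosteroid response element, which the mineralocorticoid and glucocorticoid receptors bind, was found on neither strand in the window of Fads3 or of any of the 26 members, and in 0.439% of all windows. That says nothing about elements farther from the start.
Fads3: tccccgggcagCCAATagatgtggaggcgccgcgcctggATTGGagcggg

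Other genes of the pathway, listed by function, gave no call either. Of 56 such genes 40 were measured, and 0 passed in limma with either the constant prior or the intensity trend (17 above 0, 23 below 0, median -0.034). The groups did not overlap in 1 that was higher (2.5% of the 40, against 16.7% of all rows), the acetyl-CoA carboxylase gene Acacb (2.16 and 2.35 against 2.43 and 2.48, picked once its values were known). They did not overlap in 4 that were lower, Syvn1, Prkaa1, Mid1ip1 and Dgat2, which is 10% against 11.1% of all rows and so near the background. Syvn1, a ligase of endoplasmic reticulum degradation, stood at 5.002 and 4.467 against 4.24 and 4.41. Prkaa1, a catalytic subunit gene of the energy sensor AMPK, stood at 7.748 and 7.497 against 7.48 and 6.91, so that its nearest rats almost met. Dgat2, which makes triglycerides, stood at 5.05 and 4.86 with vehicle and at 4.62 and 3.91 with aldosterone (difference -0.69, interval -1.44 to 0.065). Mid1ip1, an activator of acetyl-CoA carboxylase, stood at 6.01 and 5.70 against 5.52 and 5.27.

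The ranking of the sterol enzymes was found in 4 of these 40 genes (10%, against 6.15% of all rows), Hsd17b7, Prkaa2, Hsd17b12 and Acsl3. Hsd17b7, the ketoreductase of the C4-demethylation complex, stood at 2.85 and 3.76 with vehicle and at 3.93 and 2.89 with aldosterone. Scd2, a second delta-9 desaturase gene, stood at 6.15 and 5.57 against 6.92 and 5.21. Npc1, which exports cholesterol from lysosomes, stood at 7.67 and 7.28 against 8.68 and 7.60, and Soat1, which esterifies cholesterol for storage, at 4.98 and 4.83 against 3.68 and 5.40. Aldosterone rat 1 was thus highest for Hsd17b7, Scd2 and Npc1 and lowest for Soat1. Hsd17b7, Prkaa2, Hsd17b12, Acsl3 and Scd2 were chosen once their values were known.

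Of the 7 measured genes of LXR, the nuclear receptors that respond to sterol excess, and of sterol efflux, 3 were highest in vehicle rat 1. Abcg1, a cholesterol exporter, stood at 5.44 in vehicle rat 1 and at 2.71, 2.54 and 3.33 in vehicle rat 2 and aldosterone rats 1 and 2. Abca1, the exporter to lipid-poor apolipoprotein, stood at 4.47 in vehicle rat 1 and at 2.64, 2.84 and 3.11 in the others. Mylip, which encodes the ligase IDOL that degrades the LDL receptor, stood at 5.94 in vehicle rat 1 and at 4.24, 4.12 and 4.58 in the others. In these 3 genes aldosterone rat 1 or vehicle rat 2 was the lowest. Abcg5 and Abcg8, which together form another sterol exporter, had means below the median of all row means and were lowest in vehicle rat 1, at 1.97 and 1.83. Vehicle rat 1 was the highest in 18.2% of all rows and in 28.9% of rows at or above the median level. Abca1 and Abcg1 were picked once their values were known.

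The receptor genes and markers of other cells did not share one pattern with these exporters. Nr1h3, which encodes LXR alpha, stood at 3.31 in vehicle rat 1 and at 4.28, 4.24 and 4.57 in the other rats, and Nr1h2, for LXR beta, between 7.10 and 7.54. Ptprc, the leukocyte antigen CD45, stood at 3.23 in vehicle rat 1 and at 2.43 to 2.46 in the others, and Adipoq, an adipocyte hormone, at 4.08 in vehicle rat 1 and at 2.36 to 2.74. The other 3 measured adipocyte markers were lowest in vehicle rat 1, with Plin1 at 2.27 there and 2.48 to 2.75 in the others, Lep at 1.77 and Fabp4 at 1.87. The other 6 leukocyte markers had means below the median of all row means. Of all 7 leukocyte markers 3 were highest in vehicle rat 1, Ptprc, Cd8a and Ms4a1. Cd8a stood at 2.30 and Ms4a1 at 2.03 there, close to aldosterone rat 2 (2.26 and 2.02). Cd68 and Csf1r of macrophages and Itgam were lowest in vehicle rat 1, and Cd4 was neither. The part of other cells in the high value of vehicle rat 1 was not tested.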

How the data were processed

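Expression was measured on Affymetrix rat exon arrays in 4 samples, 2 per group. The deposited values are log2 expression values made by the authors. RMA, Affymetrix Expression Console and Partek are named per the submitters' processing notes, without version, order or role, and the log2 scale was read from the range of 1.36 to 13.7. The deposited arrays were not alike in distribution (medians from 2.22 to 2.44), and quantile normalization was tried beside them. The genome build of the array design is not given in the sources used here. Rows were named through the platform annotation (13327 of 19403 rows had 1 symbol, 620 several, 5456 none here), and all 31 members' Entrez IDs were found in RefSeq GRCr8.

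Aldosterone was compared with vehicle over all rows by a two-sided moderated fit (limma 3.58.1, R 4.3.3, lmFit then eBayes with constant prior variance), Benjamini-Hochberg adjusted across the whole array, with 0.05 as the threshold and 95% intervals. Branch values are described without a test. On simulated data the fit was checked only for the mean size of planted changes, and its calls were not judged there. The number of arrays limits the precision, and groups of 2 rats give the spread on 2 residual degrees of freedom. Tables and plots used Python 3.11.15, pandas 2.3.3 and matplotlib 3.10.9. The members, lists and naming rule (all measured members, the 2 genes of smallest p of each other pathway list, Sgk1 and others as checks) were chosen with earlier results of these data known. Other genes lie outside this rule, and some of them are marked as named after their values were seen. Nr1h2, Abcg5, Abcg8 and the single cell type markers, Tff3 among them, carry no such mark.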

Additional observations from a re-analysis of the deposited data

How the results depend on the processing

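The settings tried were quantile normalization, centring of arrays, leaving out low rows, a replicate block, the intensity trend, a robust prior, no moderation, the mean over a gene's rows (identical here, since each member had 1 row) and leaving out each rat. Rows called were 0 with the constant prior, 1 with rows below the median left out, 21 with the intensity trend and 6 with the intensity trend and the replicate block. The replicate block alone called 0 rows and 0 members. Same-numbered rats deviated together only weakly (correlation 0.148 over all rows), and the labels do not say that a number marks a shared day or litter. Members called were 1 with the intensity trend (Fads3, 2.04). With the intensity trend, 7 rows were called without vehicle rat 1, 8 without vehicle rat 2, 137 without aldosterone rat 1 and 142 without aldosterone rat 2. The members called were 0 without either vehicle rat, 2 (Fads3 and Insig1) without aldosterone rat 1 and 4 (Fads3, Idi1, Msmo1 and Fdft1) without aldosterone rat 2. The latter settings, and the trend with the block, were chosen after seeing the data. Leaving out each rat moved the median difference from -0.36 to 0.17 over all members, from -0.43 to 0.67 in the sterol branch, from -0.37 to 0.076 in the fatty acid branch, and from -0.095 to 0.59 for their distance.

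Without Fads3 the fatty acid median was -0.24, and without Ggps1 and Acat2 the sterol median was 0.093. Leaving out 1 rat turned the sign of the difference in 21 of 31 members. These ranges were -0.36 to 0.89 for Acat2, -1.15 to 1.34 for Cyp51, -0.43 to 0.67 for Dhcr7, -0.23 to 0.57 for Ebp, -0.996 to 0.17 for Elovl6, -0.89 to 1.22 for Fdft1, -0.14 to 0.17 for Ggps1, -0.19 to 0.37 for Hsd17b10, -1.16 to 1.90 for Idi1, -1.26 to 0.17 for Insig1, -0.74 to 0.00027 for Insig2, -0.22 to 0.27 for Lpin1, -0.76 to 0.48 for Lss, -0.50 to 0.52 for Me1, -0.89 to 1.72 for Msmo1, -0.16 to 0.82 for Nsdhl, -0.33 to 0.064 for Pmvk, -0.40 to 0.21 for Sc5d, -0.41 to 0.053 for Scd, -0.98 to 1.07 for Sqle and -0.58 to 0.12 for Tm7sf2. Quantile normalization turned Ggps1 (-0.016), Me1 (-0.052) and Lpin1 (-0.0090), and centring turned Ggps1 (-0.0455), Sqle (-0.013), Me1 (-0.0495) and Lpin1 (-0.031). The cause was not tested. The other 10 members, Fads3 and Fads2 among them, kept their sign in every setting.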
